A study of Mus musculus with 23 samples.

Results

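Anti-haemagglutinin precipitates from mice without Cre were compared between 2 Gars genotypes: 6 libraries from C201R mice and 6 from wild-type mice, 12 of the 23 libraries in the series, chosen by their source labels. RiboTag mice carry a ribosomal protein gene, Rpl22, whose haemagglutinin-tagged form is made only after Cre acts. Cre driven by Chat, the choline acetyltransferase gene, restricts the tag to cholinergic cells such as motor neurons. Without Cre no tagged ribosome should form, so these 12 precipitates hold RNA that came through the procedure without the tag. All 12 libraries shared 1 Rpl22 tag allele (Rpl+/-), no ChAT-Cre (Chat+/+), the B6.CgxB6.129 background, whole spinal cord as the tissue and an age of 2 weeks. The C201R group is labelled C201R+/- and the wild-type group C201R+/+. The other 11 libraries carry ChAT-Cre (Chat+/-), 5 wild-type and 6 C201R, and serve here only for contrast.

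Gars encodes glycyl-tRNA synthetase, which charges tRNA with glycine in the cytosol and in mitochondria. Dominant changes in the enzyme cause peripheral neuropathy, and C201R is a mouse allele used as a model of it. In motor neurons such alleles are linked to the integrated stress response, in which the transcription factor Atf4 drives genes for amino acid synthesis and transport. Precipitates without Cre show what the method picks up regardless of the tag, and whether the allele changes that background. Nothing in the labels ties 1 library to 1 animal. Every p-value below therefore reflects variation among libraries, part of which may be technical.

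The allele name C201R refers to a residue of Gars whose codon is a cysteine codon in the reference, in exon 5 of the gene (chr6:55038007-55079500, plus strand, GENCODE M21 on GRCm38). The stretch shows the codon in capitals at chr6:55052237-55052239, in the 729-residue protein, to place the residue that the label C201R names.
Gars codon named by C201R, with its surroundings: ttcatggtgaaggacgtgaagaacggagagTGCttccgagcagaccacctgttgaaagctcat
Gene-level tables hold no allele counts, so they do not check the genotype label. Gars itself measured 4.57, 11.3 and 27.4 CPM (counts divided by the library size, with sizes scaled by the trimmed mean of M-values, TMM) as the lowest, median and highest of the wild-type libraries. In C201R it measured 9.29, 12.7 and 19.2 CPM. The groups overlapped fully, and the log2 fold change (C201R minus wild type) was 0.01 ± 0.36 (SE, n = 6 and 6, edgeR quasi-likelihood test, adjusted p = 0.996). Rpl22 (0.28 ± 0.30, adjusted p = 0.971) and Chat (0.37 ± 0.64, adjusted p = 0.984) likewise did not pass, by the same edgeR test. The sign of the Gars and Chat values was not stable when single libraries were left out.

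Total expected counts ran from 12538407 to 18806506 in wild-type and from 12042625 to 19671869 in C201R libraries without Cre. Most of them fell on ribosomal RNA genes: outside mt-Rnr1, mt-Rnr2, Gm26924, Lars2 and Gm15662, 2170423 to 5582508 counts remained in wild type and 594383 to 4886780 in C201R. The 30 pairs of libraries within the groups differed by at least 19.95 in chi-square per degree of freedom, so none repeated another within counting error. By X- and Y-linked transcripts, 3 libraries of each genotype fell on each side.

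Mitochondrial ribosomal RNA was the most abundant class in these precipitates. mt-Rnr1 and mt-Rnr2, the RNAs of the small and large mitochondrial ribosomal subunits, together took 34.7%, 49.3% and 59.1% of counts as the lowest, median and highest wild-type libraries. In C201R they took 45.6%, 53.2% and 65.0%. In every library without Cre this share was above that of every library with Cre, where it ran from 3.81% to 5.97% in wild type and from 1.81% to 7.34% in C201R. The difference was 43.2 percentage points in wild type (exact permutation test, two-sided, adjusted p = 0.00693, n = 6 and 5) and 50.7 in C201R (exact permutation test, adjusted p = 0.00433, n = 6 and 6). The exact p of 0.00216 behind the latter is the smallest that 6 against 6 libraries can give.

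The rRNA-like models (Gm26924, Gm15662 and Lars2) took a larger share of counts with Cre. They took 26.2% ± 7.11 (SD, n = 6) of counts in wild type and 26.3% ± 6.58 (SD, n = 6) in C201R without Cre. With Cre they took 70.6% ± 15.3 (SD, n = 5) and 57.6% ± 10.3 (SD, n = 6). Groups with and without Cre did not overlap in either genotype. That direction holds for shares of all counts: on TMM-scaled sizes 0 of the 3 models were called (median log2 difference 0.16, no Cre minus Cre), and with library totals alone all 3 were called lower without Cre (median -1.29). Lars2 encodes the mitochondrial leucyl-tRNA synthetase, and its counts are placed with the models here, not read as that enzyme's mRNA. The 13 mitochondrially encoded protein genes held 1.36% ± 0.777 of counts in wild type and 0.911% ± 0.781 in C201R (SD, n = 6 each) without Cre, against 0.123% ± 0.132 (n = 5) and 0.158% ± 0.0976 (n = 6) with Cre. That difference passed in wild type (adjusted p = 0.00693) and in C201R (adjusted p = 0.00866) by the exact permutation test, with overlap between single libraries in C201R. Mitochondrial tRNA genes were listed at 0 in every library.

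**Figure D1:**
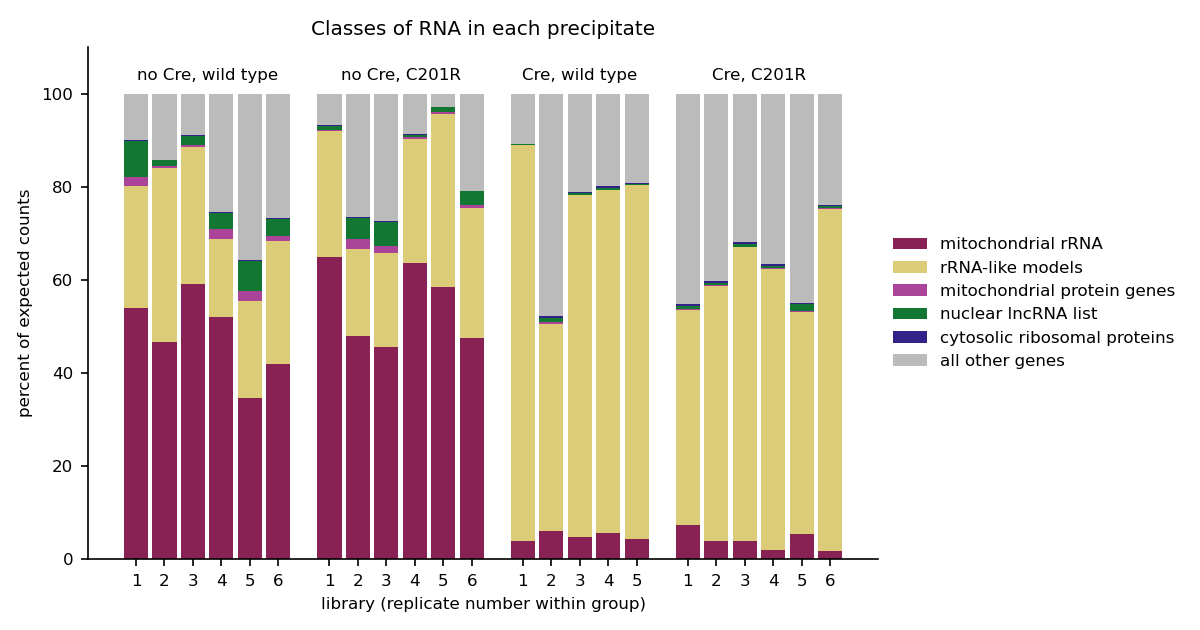
Percent of expected counts (vertical axis) in each library (bars, by replicate number within the 4 groups) taken by classes of RNA, stacked to 100. Mitochondrial rRNA fills 34.7% to 65.0% of the 12 libraries without Cre and at most 7.34% of those with Cre.

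None of 8 classes differed between the Gars genotypes beyond the spread between libraries. Mitochondrial rRNA was 6.62 percentage points higher in C201R (exact permutation p = 0.227, adjusted p = 0.807). The rRNA-like models differed by 0.12 points (exact permutation p = 0.963). The nuclear long noncoding RNA list, which Malat1 dominates, was lower by 1.59 points in C201R (4.07% ± 2.53 against 2.49% ± 2.0, SD, n = 6 each, exact permutation p = 0.255). Mitochondrial protein genes differed by -0.45 points (exact permutation p = 0.32) and cytosolic ribosomal protein genes by -0.01 points (exact permutation p = 0.751). Mitochondrial tRNA, counted among the 8, was 0 in every library and could not differ. The groups overlapped in every other class, and the smallest adjusted p over the 8 (exact permutation test) was 0.807.

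How much messenger RNA a library held varied widely within each genotype. Nuclear protein-coding genes (without Lars2) took 8.36%, 10.4%, 8.06%, 24.1%, 34.3% and 25.7% of counts in wild-type replicates 1 to 6. In C201R replicates 1 to 6 they took 6.27%, 24.7%, 25.4%, 6.48%, 2.56% and 19.3%. Tandem repeat models annotated as protein-coding, described below, are included in the shares of both genotypes. The values formed separate sets, with 3 libraries of each genotype between 2.56% and 10.4% and 3 of each between 19.3% and 34.3%. The 3 wild-type libraries of the higher set are the ones whose titles begin with 20401, a number the labels do not explain. In C201R the titles of that set begin with 18405 and 20301. The lower set also held fewer measurable genes: 5607 to 11514 genes reached 10 counts there, against 13055 to 14704 in the higher set. C201R replicate 5 was the poorest, with 594383 counts outside ribosomal RNA genes.

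Malat1, a nuclear-retained long noncoding RNA of chromosome 19, was the most abundant nuclear transcript outside those models. It took 1.16%, 2.98% and 7.26% of counts as the lowest, median and highest wild-type libraries and 0.43%, 1.74% and 4.62% in C201R. The groups overlapped (exact permutation p = 0.271), and the highest wild-type value, in replicate 1, stood in a library poor in messenger RNA. Against Cre libraries, Malat1 was higher without Cre by 3.82 ± 0.43 on the log2 scale over both genotypes (edgeR, adjusted p = 2.776e-08). As a share of counts it separated fully in wild type (exact permutation p = 0.00433, n = 6 and 5) but overlapped in C201R (exact permutation p = 0.0628, n = 6 and 6), as did the nuclear list in C201R (exact permutation, adjusted p = 0.0767). Meg3, an imprinted nuclear RNA, was higher by 3.49 ± 0.28 (edgeR, adjusted p = 9.78e-11) and Miat, another nuclear-enriched RNA, by 2.85 ± 0.20 (edgeR, adjusted p = 8.647e-12). Of 14468 genes tested in that contrast 56.8% were called, and 34.7% were called higher and 22.1% lower without Cre, so a call by itself was common. Of 10 tested members of the nuclear list, 8 were called higher and 0 lower, with a median of 3.45 against 0.28 over all genes.

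A second uneven component was a tandem repeat. Gm26870, a long noncoding model at chr9:3000282-3038313, repeats itself every 234 bases with 95.9% identity, and 12 further models share at least 17.1% of their 31-base words with it. One unit of its transcript is printed because these models set apart individual libraries; a 234-base period is known for the mouse major satellite at centromeres.
Gm26870 repeat unit: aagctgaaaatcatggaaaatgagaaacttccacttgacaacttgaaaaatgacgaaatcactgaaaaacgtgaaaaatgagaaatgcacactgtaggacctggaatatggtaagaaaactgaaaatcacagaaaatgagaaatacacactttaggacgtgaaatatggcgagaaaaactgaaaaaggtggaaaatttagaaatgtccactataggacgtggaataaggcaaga
The 13 models took 0.55%, 2.8%, 0.31%, 0.18%, 0.095% and 0.19% of counts in wild-type replicates 1 to 6. In C201R they took 0.21%, 0.45%, 0.54%, 1.3%, 0.15% and 0.51%. Wild-type replicate 2 and C201R replicate 4 were high, the groups overlapped, and the exact permutation p was 0.896. Because 12 of the 13 models are annotated as protein-coding, single models of this kind were left out of the messenger RNA levels given next. The shares of nuclear protein-coding genes given above still include those 12.

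**Figure D2:**
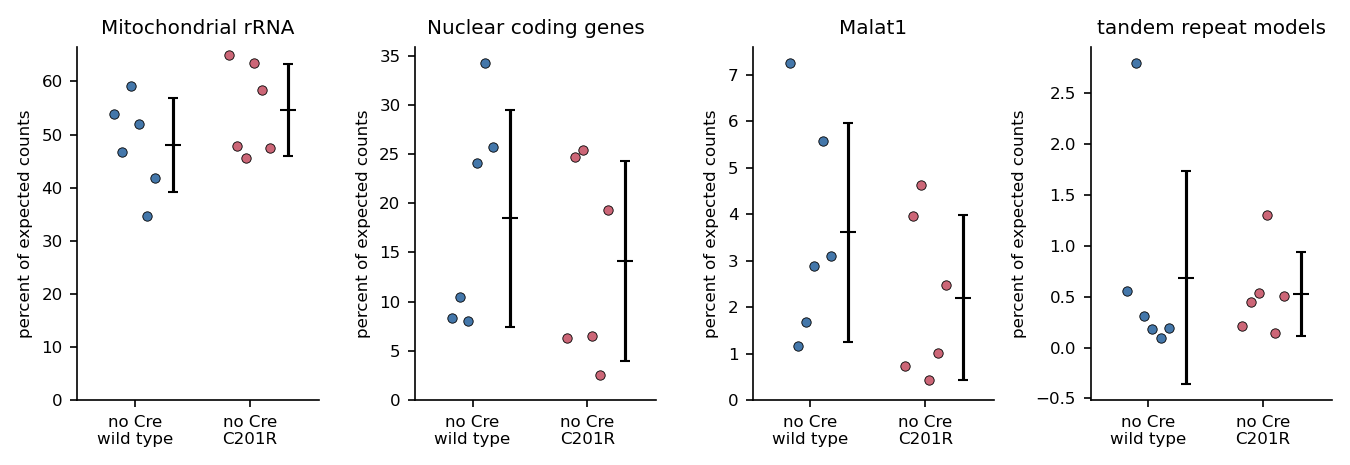
Percent of expected counts (vertical axes) in the 6 wild-type and 6 C201R libraries without Cre (points), with the mean and SD beside them, for 4 classes. Nuclear coding genes split each genotype into 3 low and 3 high libraries, and the repeat models reach 2.8% in 1 wild-type library.

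Cell identity was read from coding TPM, the deposited TPM of named nuclear protein-coding genes rescaled to the same total in each library. In bulk tissue fewer cells of a type and less RNA per cell cannot be told apart. Oligodendrocyte markers dominated: 14 genes of myelin and its synthesis summed to 52320, 62690 and 68530 coding TPM as the lowest, median and highest wild-type libraries and to 51740, 58640 and 83920 in C201R. Mbp (myelin basic protein) averaged 35280 coding TPM over the 12 libraries. Every library without Cre exceeded every library with Cre in this sum, whose highest value with Cre was 48110. All 14 members were called higher without Cre, with a median of 2.21 on the log2 scale.

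Markers of several other non-cholinergic cells were also called higher. Counts here cover members that pass the filter on low counts both with and without Cre. Over all 11410 such genes 31.6% were called higher and 24.7% lower without Cre, with a median of 0.14. All 10 oligodendrocyte precursor genes and 12 of 14 astrocyte genes were called higher, with medians of 2.2 and 1.99. Of 14 microglial genes only 5 passed the filter in both, and 4 of these were called higher. Of 8 erythroid genes 7 passed it, and all 7 were called higher. Gfap, the astrocyte filament protein, was higher by 2.21 ± 0.40 (edgeR, adjusted p = 3.669e-05), and the globin Hbb-bs by 1.92 ± 0.46 (edgeR, adjusted p = 0.000862). General neuronal and motor neuron genes went lower: 11 of 12 and 8 of the 9 that passed were called lower without Cre, with medians of -2.11 and -3.93. Genes of inhibitory neurons did not, with 5 of 9 called higher and 2 lower (median 0.58). Of 4 excitatory interneuron genes 2 were called higher and 2 lower. Chat was lower by 4.2 on the log2 scale (-4.2 ± 0.32, edgeR, adjusted p = 5.786e-11), Prph (peripherin, a motor neuron filament) by 3.93 (-3.93 ± 0.23, adjusted p = 4.432e-13) and Snap25, a synaptic fusion protein, by 1.84 (-1.84 ± 0.18, adjusted p = 4.804e-09).

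Motor neuron RNA was still detectable in the background. The 14 matched motor neuron genes summed to 1233, 1717 and 3187 coding TPM in wild type and 1119, 2409 and 3649 in C201R, most of it Nefh (1992 on average), a neurofilament that other large neurons also make. Chat averaged 11.1 coding TPM without Cre against 143 with Cre. The homeobox gene Mnx1 averaged 1.16 against 20.6. Sensory ganglion and keratinocyte lists had no member abundant enough for the genotype test.

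Genes of mitochondria split by the genome that encodes them. All 13 mitochondrially encoded protein genes were called higher without Cre, with a median of 3.74, while all 30 nuclear genes of the respiratory chain were called lower, with a median of -1.28. Over all 14468 tested genes 34.7% were called higher and 22.1% lower. Over the 11410 that pass the filter both with and without Cre, 31.6% and 24.7% were. Other nuclear lists went lower too. Of 14 housekeeping genes 11 were called lower (median -0.98), and of 20 cytosolic tRNA synthetase genes 14 (-0.90). Of 13 heat shock genes 11 passed the filter both with and without Cre, and 10 of these were called lower (-1.6). In the housekeeping and heat shock lists 1 gene each was called higher. Endoplasmic reticulum chaperone genes moved less, with 4 of 14 called lower and 0 higher. mt-Nd6, a complex I subunit on the opposite strand of mitochondrial DNA, was higher by 5.17 ± 0.47 (edgeR, adjusted p = 9.839e-10). Cytosolic ribosomal protein genes moved less: of 78 tested, 30 were called lower, 2 higher, with a median of -0.42. More of them were called lower with ribosomal RNA genes left out (47) and with library totals alone (49). These directions also held with library totals alone, relative to a median over all genes that moved from 0.28 to -0.39, but there 5 of 14 oligodendrocyte, 6 of 10 precursor, and 4 of 14 astrocyte genes were called higher, and Hbb-bs was not.

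**Figure D3:**
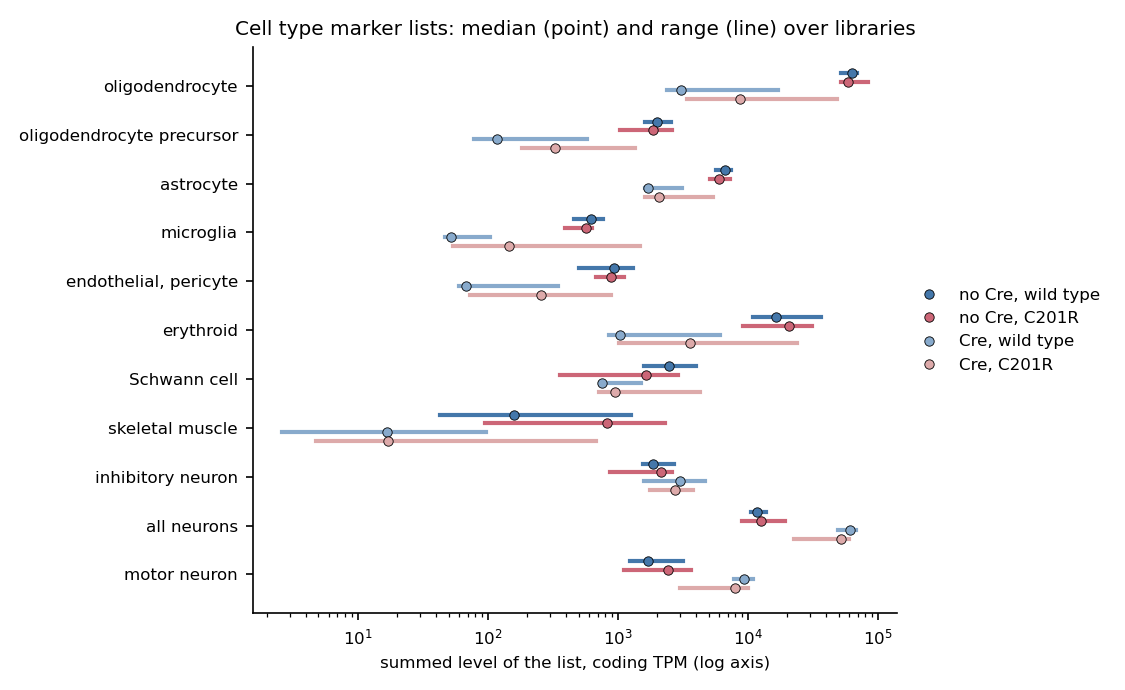
Summed coding TPM of 11 cell type marker lists (log axis), with the median (point) and range (line) over the libraries of each of the 4 groups. The oligodendrocyte medians are 62690 and 58640 in the groups without Cre, and every oligodendrocyte sum without Cre lies above 48110, the highest with Cre.

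No gene passed the test between the genotypes. Of 12588 genes tested over the 12 libraries, 0 passed an adjusted p of 0.05 (edgeR quasi-likelihood test, percent called 0), and 565 had an unadjusted p under 0.05, which is 4.49%. DESeq2 and limma-voom called 0 as well, with 757 and 881 unadjusted p under 0.05. Without a filter on low counts edgeR called 31 of 29053 genes (24 higher, 7 lower), and with the title number as a block over all 23 libraries it called 8, all lower. The median log2 fold change over all genes was -0.02. The smallest adjusted p was 0.951.

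The precision of that result depends on level. The 95% interval of a gene reached 1.06 log2 units to either side at the median, and 0.70 among the 4196 most abundant genes, against 1.49 among the 4196 least abundant. These intervals are for single genes and are not adjusted for the 12588 tested, so they are not limits of detection. Larger estimates did not pass either, such as -1.42 for Cdkn1a (95% interval -2.22 to -0.62). Changes above that size are therefore not excluded. Only 24 genes, 0.191% of those tested, had CPM ranges that did not overlap between the genotypes.

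The 20 genes with the smallest p held 10 higher and 10 lower estimates, with unadjusted p from 0.0013 to 0.00482. In 14 of them, the top library of the higher group stood over 2-fold above the next one. Such a signal is that of Cep350, a centrosomal protein: 22.8, 95.8 and 1296 CPM in wild type as lowest, median and highest, and 20.5, 46.5 and 88.3 CPM in C201R. Its fold change of -2.56 ± 0.74 came down to -0.85 without wild-type replicate 4, the library at 1296. Rbl1, a retinoblastoma-related cell cycle repressor, reached 29.1 CPM in C201R replicate 5 and at most 1.56 in the other C201R libraries.

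Of these 20 genes, 4 had genotypes that did not overlap, against 24 (0.191%) of all 12588 tested. The 20 were chosen by small p on the same libraries, which favours separated groups. Zfp260, a zinc finger protein, measured 6.05, 7.65 and 23.9 CPM in wild type and 1.28, 2.83 and 5.17 in C201R (-1.59 ± 0.42, edgeR adjusted p = 0.951). Every C201R library lay below every wild-type library. Gm9846, a gene model of chromosome 9, measured 1.98, 3.75 and 4.83 CPM in wild type and 4.95, 8.3 and 17.6 in C201R (1.44 ± 0.39, edgeR adjusted p = 0.951). The others were 2610035D17Rik, a long noncoding RNA, and Cdkn1a, described after the stress genes. Among better-measured genes, Miat measured 47.0, 58.5 and 141.7 CPM in wild type and 33.8, 40.6 and 48.7 in C201R (-0.95 ± 0.30, edgeR adjusted p = 0.951). Ahnak, a very large scaffold protein, measured 24.8, 49.8 and 78.9 CPM against 16.99, 25.3 and 42.8 (-0.94 ± 0.30, edgeR adjusted p = 0.951). Both overlapped between genotypes and neither passed the test.

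Genes of the integrated stress response were examined by a list of 37. Without Cre 26 were abundant enough to test, 16 had positive and 10 negative estimates, 0 were called, and the median was 0.15 against -0.02 over all genes. Positive estimates made up 48.2% of all genes. Of those 26, 23 had a larger estimate with Cre, and 11 were called higher there, where 0.234% of all genes were. The list is known from the Cre libraries of this series and is not independent evidence of a direction there.

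Psat1, an enzyme of serine synthesis, measured 9.87, 19.3 and 27.6 CPM in wild type and 10.3, 20.8 and 44.8 in C201R without Cre. The genotypes overlapped almost completely (0.28 ± 0.32, edgeR adjusted p = 0.975), against 1.98 ± 0.25 with Cre (adjusted p = 0.0027). Psph, the next enzyme of that pathway, gave 0.69 ± 0.66 without Cre (adjusted p = 0.968) and 2.82 ± 0.30 with Cre (adjusted p = 0.000804). Phgdh, the first enzyme, was among 2 of 26 tested list members with an unadjusted p under 0.05, against 4.49% of all genes. It measured 3.53, 4.82 and 13.3 CPM in wild type and 6.34, 11.5 and 22.5 in C201R (0.99 ± 0.40, edgeR adjusted p = 0.951). The other, Cebpg, a partner of Atf4 at DNA, had a negative estimate: 7.98, 10.5 and 33.7 CPM against 1.28, 5.48 and 11.2 (-1.2 ± 0.44, edgeR adjusted p = 0.951). It came to -0.75 without wild-type replicate 2, where its unadjusted p was no longer under 0.05. Atf4 itself gave -0.32 ± 0.31 (adjusted p = 0.968) and the amino acid transporter Slc7a1 -0.39 ± 0.30 (adjusted p = 0.961).

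Members too scarce to test included the secreted stress hormones. Fgf21 had 0, 0, 0, 0, 3 and 0 counts in wild-type replicates 1 to 6 and 9, 4, 8, 15, 0 and 5 in C201R. Counts were thus present in 5 of 6 C201R and 1 of 6 wild-type libraries, 41 against 3, over 15588263 and 23154715 counts outside ribosomal RNA genes. The ratio of the rates was 20.3 (95% interval 6.48 to 102, counting error only, which leaves out the spread between libraries). Fgf21 fell below the filter of the main genotype fit. In edgeR fits that kept it, it did not pass: adjusted p was 0.243 without a filter and 0.382 over all 23 libraries. With the title number as a block over all 23 libraries the edgeR adjusted p was 0.132. For scale, Fgf21 stood at 0 to 0.23 TPM in wild type and 15.75 to 49.3 TPM in C201R with Cre, and at 0 to 1.43 TPM in C201R without it. Gdf15, another secreted stress factor, had 82 counts in C201R replicate 4, 0 in the other C201R libraries and 1 in each of 2 wild-type libraries. Adm2, a peptide hormone of the same list, had 0 counts in all 12.

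**Figure D4:**
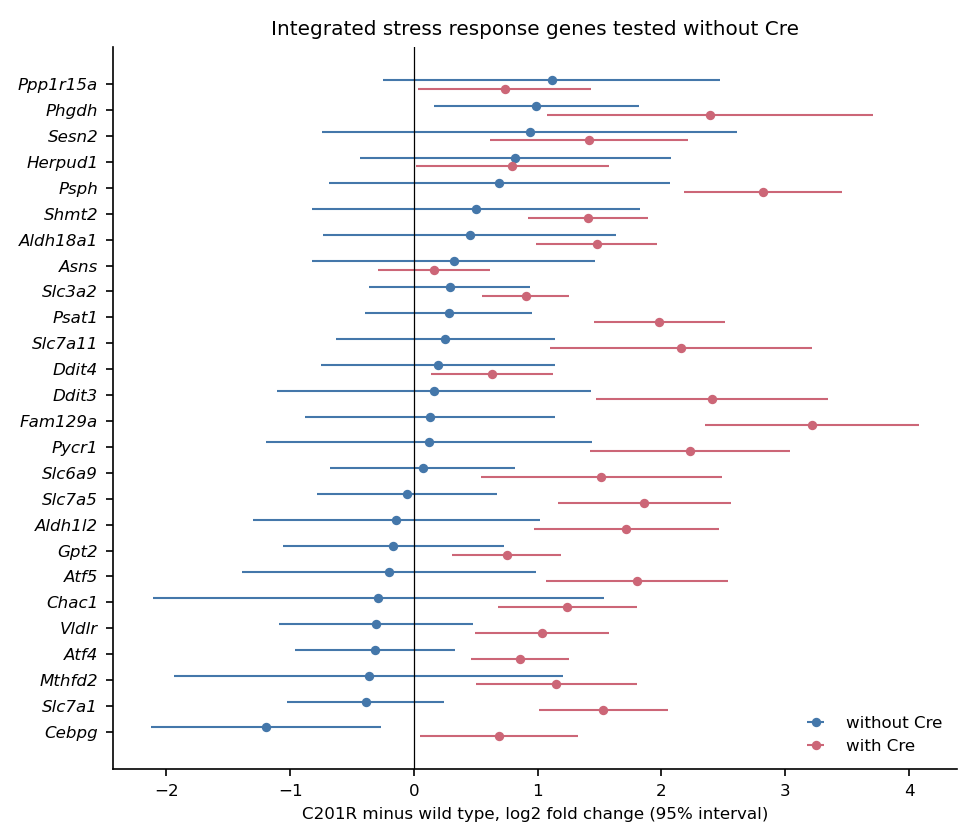
Log2 fold change of C201R minus wild type (horizontal axis, with 95% intervals) of the 26 integrated stress response genes tested without Cre, without Cre and with Cre. Estimates without Cre lie between -1.2 and 1.11 around 0, and 23 of the 26 were larger with Cre.

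Cdkn1a (chr17:29090976-29100727), the p21 inhibitor of cyclin-dependent kinases, had opposite directions in the precipitates with and without Cre. Without Cre it measured 7.72, 10.7 and 17.9 CPM in wild type and 0.855, 4.61 and 6.71 in C201R as lowest, median and highest. As in 0.191% of all tested genes, the groups did not overlap: every C201R library lay below every wild-type library (-1.42 ± 0.38, edgeR adjusted p = 0.951). With Cre it rose in C201R by 1.71 ± 0.22 (adjusted p = 0.00277). The difference of the genotype effects was 3.1 ± 0.44 (edgeR interaction, adjusted p = 0.00146), and it was called in each of the 23 fits that left out 1 library. Of the 11 testable p53 target genes, Cdkn1a included, 6 estimates were positive and 5 negative, and the median was 0.17. Bax, an inducer of cell death in that list, had a larger negative estimate than Cdkn1a.

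The interaction called 3 of 14468 genes, 0.0207%. Clic4, an intracellular chloride channel protein, differed by 1.9 ± 0.35 (edgeR adjusted p = 0.0437): 41.5, 42.7 and 57.2 CPM in wild type and 18.4, 37.6 and 42.0 in C201R without Cre (-0.34 ± 0.24, adjusted p = 0.951) against 1.59 ± 0.26 with Cre (adjusted p = 0.0148). That call was lost in 18 of 23 fits without 1 library, with adjusted p up to 0.18. The third, Gm6984, is a processed pseudogene with at most 17 counts in any library without Cre (adjusted p = 0.039). It is listed at 0 in all 6 C201R libraries with Cre, so the size of its difference is not measured. Its call was lost in 13 of 23 such fits. Fam129a, a stress-induced gene also named Niban, differed by 3.09 ± 0.61 (adjusted p = 0.0831, without Cre 0.13 ± 0.48). Psat1 differed by 1.68 ± 0.43 (adjusted p = 0.321) and Slc7a1 by 1.91 ± 0.39 (adjusted p = 0.0838), by the same edgeR interaction.

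None of the genes called between the genotypes with Cre was called in the background. Of the 41 genes called with Cre (0.331% of 12399), 33 were testable without Cre, 0 were called, 1 (Cdkn1a) had an unadjusted p under 0.05, and 16 of 33 had the same sign. Over all genes tested without Cre 4.49% had an unadjusted p under 0.05. For 24 of the 33 the 95% interval without Cre left out the estimate with Cre, and for 9 it held it, among them Shmt2, Slc3a2 and Polr3g. The estimates with Cre were selected for being called, which favours large ones. Their own error is also left out of this comparison, so it is no test of a difference. The interaction tests that difference, and it called 3 of 14468 genes. Cd24a, a surface glycoprotein of immature neurons, measured 4.45, 9.01 and 11.6 CPM in wild type and 5.73, 7.93 and 9.98 in C201R without Cre (-0.17 ± 0.32, adjusted p = 0.984) against -1.88 ± 0.28 with Cre (edgeR adjusted p = 0.00988).

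**Figure D5:**
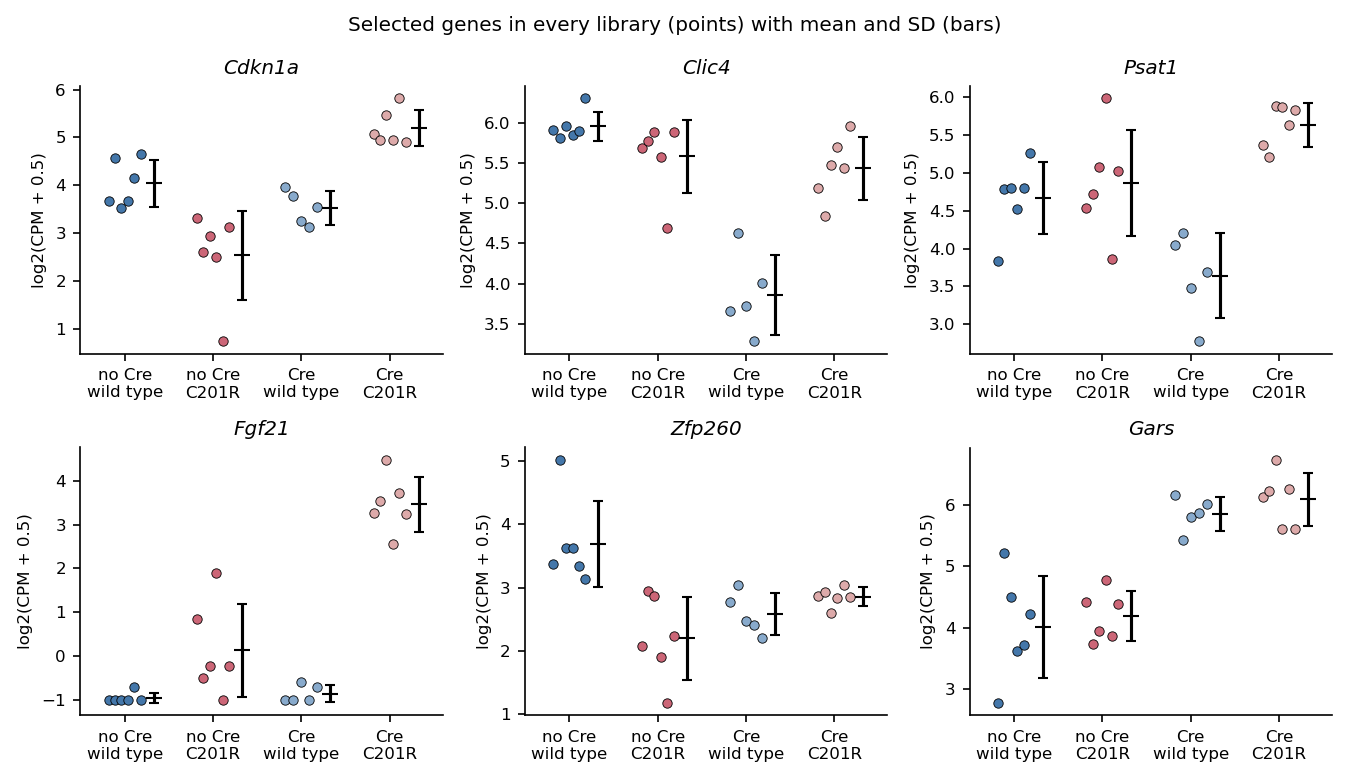
Level of 6 genes as log2(CPM + 0.5) (vertical axes) in every library of the 4 groups (points), with mean and SD, on library sizes scaled over all 23 libraries. Cdkn1a is lower in C201R than in wild type without Cre, where no gene passed the genotype test. With Cre it is higher in C201R, and Psat1 and Fgf21 also stand apart by genotype.

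Marker and pathway lists showed no called gene for the genotype without Cre. Over 16 cell type lists, 7 of 136 tested entries had an unadjusted p under 0.05, and over 13 pathway lists 8 of 247. Over all 12588 tested genes 565, or 4.49%, did, so these counts are not read as a result about the lists. Of the skeletal muscle genes, all 9 tested had positive estimates (48.2% of all genes did), with a median of 1.29. Myh8, the perinatal myosin heavy chain, gave 1.57 ± 0.61 (edgeR adjusted p = 0.951), and Actn3, the actinin of fast fibres, 2.25 ± 1.05 (adjusted p = 0.951), or 0.94 without C201R replicate 5. Their sum ran from 43.1 through 160 to 1262 coding TPM in wild type and from 95.7 through 824 to 2312 in C201R, so the genotypes overlapped and single libraries differed widely. The 7 testable meningeal fibroblast genes all had negative estimates, with a median of -0.46, and 6 of 7 Schwann cell genes did, with a median of -0.57. The part of these cells in other results was not tested.

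For lists of cells within the cord the median log2 fold change was -0.20 for 14 oligodendrocyte genes, 0.02 for 14 astrocyte genes, -0.06 for 13 microglial genes, -0.07 for 12 general neuronal genes and 0.02 for 9 motor neuron genes. Gjb1, a connexin of myelinating cells, had the lowest p of the oligodendrocyte list (-1.1 ± 0.41, edgeR adjusted p = 0.951), and came to -0.74 without wild-type replicate 2. Slc5a7, the choline transporter of cholinergic terminals, gave -1.16 ± 0.47 (edgeR adjusted p = 0.951), and -0.44 without wild-type replicate 2, where it reached 38.4 CPM against 9.18 or less in every other library.

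Lists of translation and respiration had mostly positive estimates. Of 78 cytosolic ribosomal protein genes 62 had positive estimates (median 0.25), with 3 at an unadjusted p under 0.05. Over all genes 48.2% had positive estimates and 4.49% an unadjusted p under 0.05. Of the 20 cytosolic tRNA synthetase genes, 15 had positive estimates (median 0.38), led by Cars, which charges cysteine (0.86 ± 0.38, edgeR adjusted p = 0.951). Of 30 nuclear respiratory chain genes 23 were positive (median 0.27). With library totals alone the medians of these lists were -0.13, -0.23 and -0.16, against -0.35 over all genes, so only the direction relative to other genes was kept. Of the nuclear long noncoding RNAs, 8 of 10 estimates were negative (median -0.50).

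Genes close to Gars were examined because alleles linked to C201R can differ between the genotypes. Within 20 Mb of Gars on chromosome 6, 161 genes were tested, 0 were called and 4, or 2.48%, had an unadjusted p under 0.05, against 4.49% of all genes. Rpia, ribose-5-phosphate isomerase of the pentose phosphate pathway, 15.7 Mb away, had the smallest p: 5.09, 6.32 and 8.6 CPM in wild type and 7.03, 9.59 and 33.3 in C201R (1.29 ± 0.40, edgeR adjusted p = 0.951). On the whole chromosome 30 of 622 genes, 4.82%, had an unadjusted p under 0.05.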

How the data were processed

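RNA from anti-haemagglutinin precipitates of spinal cord was sequenced. Per the submitters' processing notes, the tools were Bowtie2 2.2.0 and RSEM 1.2.12. Which genome build and gene models they used is not given in the sources used here. The authors deposited, per gene, expected counts (not normalised for depth) and TPM (scaled to length and library). GENCODE M21 (GRCm38) held 37607 of the 38924 gene identifiers and was the source of positions, gene types and the printed sequences.

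Groups came from the source labels. The members and gene lists were chosen with earlier results of these data known. Named genes were Gars, Rpl22 and Chat, the 20 smallest p, the most abundant and most variable genes, those most in excess without Cre, the top members of each list, 21 genes changed with Cre and the 5 smallest p near Gars; not all are reported. Phgdh, Cebpg, Slc7a1, Gjb1, Slc5a7, Myh8, Actn3, Cars, Shmt2 and Slc3a2 fall outside this rule: they were picked with their values in view, as were the Fgf21 counts per library.

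Expected counts were rounded to whole numbers. Tests were quasi-likelihood fits of edgeR 4.0.16 under R 4.3.3, after TMM scaling and filterByExpr (10 counts, 15 in total), with Benjamini-Hochberg adjustment. The genotype fit used 12 libraries; the interaction and Cre contrasts used all 23. CPM from TMM-scaled sizes can exceed the share of raw counts, most in C201R replicate 5. For shares of counts the test was an exact permutation of libraries, two-sided, adjusted over 8 classes. Coding TPM leaves out Lars2 and models named Gm with a number, and was added after the data were seen. Shared sequence was counted in 31-base words. The scripts were tested on simulated data. Alternatives were RLE factors, library totals, DESeq2 1.42.0, limma-voom and limma-trend on log2(TPM + 1) (limma 3.58.1), other filters, covariates and blocks, subsets by title number and leaving out each library. Replicate numbers follow deposit order and pair nothing.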

Additional observations from a re-analysis of the deposited data

Results flagged for a closer look

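Some values stood apart within a group of 6 libraries, by a gap to the nearest value of more than 0.625 of the range. In all, 80 such groups were examined, and about 1 in 20 would do so by chance alone. That rate does not hold for genes picked by small p or with their values in view. Zfp260, Mef2d, Cep350, Rbl1, Cebpg, Slc5a7 and Actn3 are such genes. The tandem repeat models took 2.8% of counts in wild-type replicate 2 (next 0.55%) and 1.3% in C201R replicate 4 (next 0.54%). RNAs made by polymerase III and scaffold RNAs took 0.00596% in wild-type replicate 3. Wild-type replicate 2 also had the highest CPM of its group for Zfp260 (23.9), Mef2d, a muscle and neuron transcription factor (59.6), Cebpg (33.7), Slc5a7 (38.4) and Chat (4.49). Wild-type replicate 1 stood apart for Rpl22 at 16.8 CPM, wild-type replicate 4 for Cep350 at 1296 CPM and wild-type replicate 6 for Clic4 at 57.2 CPM. C201R replicate 5, the library with the fewest counts outside ribosomal RNA genes, stood apart for Chat (5.99 CPM), Rbl1 (29.1 CPM), Actn3 (27.4 CPM) and, at the low end, Clic4 (18.4 CPM).

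The genotype effect differed between precipitates with and without Cre, by the interaction term of edgeR, for 3 genes. The log2 differences were 3.1 for Cdkn1a, 1.9 for Clic4 and -12.91 for the pseudogene Gm6984, whose fitted value is taken against a group listed at 0 and does not measure a size. Cdkn1a was lower in 6 of 6 C201R libraries than in any wild-type library without Cre, where it did not pass the edgeR genotype test. Groups without overlap were found for 24 of 12588 tested genes, 0.191%.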

How the results depend on the processing

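The genotype comparison without Cre called 0 genes in the fit reported and in every alternative except these: without a filter on low counts it called 31 of 29053 genes (24 higher, 7 lower), and with the title number as a replicate block over all 23 libraries it called 8, all lower. The labels name no pairing and do not explain the title number, so the block is a possible batch only. Among the 12 libraries without Cre, 20301 is the only title number found in both genotypes. Outside it, genotype and title number cannot be told apart within these libraries. Leaving out each library in turn gave 0 calls every time. The interaction called 3 genes, but 1 with library totals only, 42 with DESeq2, 169 with limma-voom, 9 without a filter, 1 without the libraries under 20% protein-coding counts, 2 with the replicate block, and from 1 to 8 without single libraries (8 without wild-type Cre replicate 2). Cdkn1a lost its call only with library totals (adjusted p = 0.546). The contrast of no Cre with Cre called 8211 genes, 4731 with library totals only (1350 higher and 3381 lower, against 5016 and 3195), and 7825 to 8572 without single libraries. The cause of these shifts was not tested.

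Uncalled fold changes that turned sign were these. With library totals only, Gars gave -0.27, Rpl22 -0.018, Chat -0.060, Psat1 -0.19 and Fam129a -0.43. With the replicate block, Gars gave -0.11, Chat -0.060, Cd24a 0.49 and Actn3 -0.43. Among title number 20301 only, Gars gave -0.53, Chat -0.83 and Cd24a 0.20. On log2(TPM + 1), Gars gave -0.32, Chat -0.066 and Fam129a -0.065, and Gars was -0.032 without a filter. With limma-voom Atf4 gave 0.15 and Fam129a -0.064; among libraries over 20% protein-coding they gave 0.30 and -0.20. Without single libraries Gars ran from -0.16 to 0.36, Chat from -0.12 to 0.94 and Psat1 from -0.025 to 0.42.

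Of the differences in shares, none passed under any alternative. Among title number 20301 only (4 against 2 libraries, smallest exact p 0.133), the difference was -7.89 points for rRNA-like models, 0.22 for mitochondrial protein genes, 0.73 for the long noncoding list, 0.046 for ribosomal protein genes and 4.35 for all other genes. With ribosomal RNA genes left out the last were 0.18 and 3.67, and as percent of TPM the rRNA-like models gave -0.79. Without single libraries the rRNA-like models ran from -2.06 to 2.34 and ribosomal protein genes from -0.028 to 0.0096. Depth limits mostly C201R replicate 5.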

Other observations

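Most genes higher without Cre were protein-coding, unlike those with the largest excess. Of 5016 genes called higher without Cre, 85.6% were protein-coding and 9.55% long noncoding, against 96.1% and 1.09% of the 3195 called lower. Among the 253 genes higher by at least 4 on the log2 scale, 38.3% were protein-coding and 32.0% long noncoding. Of the 228 of them with transcripts, 16.2% had more than 10% of their 31-base words in 10 or more genes, against 1.9% of all genes tested. The 5016 and 3195 genes include some that do not pass the filter on low counts both with and without Cre. Such genes can enter through the libraries where they are high. Of the 11410 genes that pass it in both, 3605 were called higher and 2819 lower. Shares were not worked out for these alone. The strongest among those with a mean of at least 5 CPM without Cre were Gm26582 (6.29), B430306N03Rik (5.81), mt-Rnr1 (5.74), a pair of Metazoa_SRP models (5.44), which carry the signal recognition particle RNA and share their sequence, and mt-Nd6 (5.17).

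Genes with the widest spread over the 12 libraries were led by the X- and Y-linked Xist and Ddx3y, the fast myosin Myh4, with an SD of 2.44 on the log2 CPM scale, processed pseudogenes such as Gm11518, and the repeat models Gm10718, Gm10719 and Gm21738. Gm10222, a pseudogene on chromosome 1, shared 100% of its 31-base words with mt-Nd4l and had the same TPM in every library, so its reads cannot be told apart from mitochondrial ones. Gm6984, called by the interaction, had counts in 5 of 6 C201R and 1 of 6 wild-type libraries without Cre, and its TPM was 0 in all 6 C201R libraries with Cre and above 0 in 4 of 5 wild-type ones.

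The sum of the 37 integrated stress response genes ran from 1034 through 1457 to 1653 coding TPM in wild type and from 1608 through 1686 to 2133 in C201R without Cre. The genotypes overlapped in this sum, with 2 wild-type libraries above the lowest C201R library, and with Cre it averaged 863.9 and 2438. No test was made of it.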
